A study of Mus musculus with 6 samples.

Results

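Feedback genes of the RAS-ERK pathway were compared among BC44, HC11 and C57MG, 3 established mouse mammary lines that the labels call epithelial. Most of the markers examined in C57MG go against that name. The set holds 3 dual-specificity phosphatases (Dusp4, Dusp5 and Dusp6), the Sprouty and Spred genes Spry2, Spry4 and Spred1, the ETS factors Etv4 and Etv5, and Phlda1. Members were taken by gene symbol from the deposited table of RPKM (reads scaled to gene length and to library depth). Of the 9 genes 8 were listed among the 11417 genes of the table. Spry4 was not listed and was not analysed here. All 8 had at least 1 RPKM in at least 2 libraries and were tested.

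Poly(A) RNA of untreated cells on plastic was sequenced in 2 libraries per line, 6 in all. BC44 was grown in RPMI1640 with 10% serum and 5 µg/ml insulin. HC11 had the same medium with 10 ng/ml of the receptor ligand EGF (epidermal growth factor) added. For C57MG the medium was DMEM with 10% serum, and insulin was at 10 µg/ml; the cells of every line were harvested 2 days after plating. The labels name EGF in the HC11 medium alone, so a difference of HC11 from the other lines cannot be told apart from a difference of medium. The labels do not say whether the 2 libraries of a line came from separate cultures, so p-values measure only the spread between these libraries.

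As background, EGF binds its receptor tyrosine kinase, which activates RAS and the kinases RAF, MEK and ERK in turn. Active ERK switches on genes whose products then damp the same pathway, so their mRNA is widely read as a record of recent ERK signalling. The dual-specificity phosphatases remove phosphate from ERK, Sprouty and Spred proteins act upstream near RAS and RAF, and Etv4 and Etv5 are transcription factors of the PEA3 family that work downstream of EGF and FGF receptors.

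Estimated depth was 14300000 to 18460000 reads per library, and 3 reads, taken as the floor, are worth 0.081 to 0.105 RPKM in a gene with 2 kb of exons. Both cover counting error only. Markers of epithelium were at or above 1 RPKM for 10 of 10 listed genes in both HC11 libraries, for 6 in both BC44 libraries, and for 3 and 1 in C57MG replicates 1 and 2. Their summed level was 4828 to 5039.7 RPKM in BC44, 2323 to 3186 in HC11, and 137 and 65.4 in C57MG. The defining markers Epcam and Cdh1 were at 0.949 and 1.09 RPKM in C57MG replicate 1 and listed at 0 in replicate 2. The 11 listed mesenchymal markers summed to 6775 to 7071 RPKM in C57MG, 151 to 240.3 in BC44 and 118 to 154 in HC11. Vim, a mesenchymal filament gene, was at 2708 and 2282 RPKM in C57MG. Some markers went the other way. Postn, of the mesenchymal list, was at 3.81 and 1.03 RPKM in C57MG, 79.6 and 83.0 in BC44 and 75.7 and 46.4 in HC11. Krt14, an epithelial keratin, was at 118 and 64.8 RPKM in C57MG, most of the epithelial sum there. In BC44 the epithelial markers Krt8, Krt18, Krt7 and Cldn3 were at 0.078 RPKM or less. Most of the markers thus go against the epithelial label of C57MG, which is called by its line name here. The part of this epithelial and mesenchymal difference in the values below was not tested. In bulk RNA, fewer cells of a type and less RNA per cell cannot be told apart.

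Genes that averaged 20 RPKM or more in 1 line, had at most 2% of that in the line not examined and at most 5% in the other replicate were followed in each library. These limits were set with the values already known. In BC44 replicate 2, 72 such genes of C57MG were at a median of 2.02% of their C57MG level, with 97.2% of them within 2-fold of that median, and in BC44 replicate 1 at 0.666% (64.4%). In C57MG replicate 1, 11 genes of BC44 were at 0.729% of their BC44 level (90.9% within 2-fold), and in replicate 2 at a median of 0. In HC11 replicates 1 and 2, 18 genes of BC44 were at 2.38% and 1.21% (66.7% and 44.4% within 2-fold), and those of C57MG at 0.251% and 0.35%. BC44 replicate 2 and C57MG replicate 1 thus stand apart from their partners. Without BC44 replicate 2, the genes of the set called were 7 in HC11 against BC44, 6 in HC11 against C57MG and 3 in BC44 against C57MG, and without C57MG replicate 1 they were 7, 6 and 2, beside 7, 6 and 3 with all libraries. Without BC44 replicate 2 the 3 genes include Dusp4 and not Etv5. The genes of HC11 itself were at 0.0413% and 0.141% of their HC11 level in BC44 replicates 1 and 2, and at 0.0105% and 0.0323% in C57MG. Etv5 in BC44 was at 1.99% and 2.30% of its HC11 mean and Dusp6 in C57MG at 2.13% and 2.11%, the lowest shares in the set.

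Most of the set was higher in the EGF-grown line. Against BC44, 7 of 8 genes were higher in HC11 with a limma adjusted p-value under 0.05 (Benjamini-Hochberg over all 10759 genes tested), where 23.0% of all tested genes were. Against C57MG 6 of 8 were higher, where 37.4% of all tested genes were. None of the 8 was lower in HC11 by this test in either comparison, nor at an unadjusted p under 0.05 (0 of 8 in each), where 24.7% and 33.2% of all tested genes were. The 6 genes Dusp4, Dusp5, Dusp6, Etv4, Etv5 and Phlda1 were higher in HC11 than in both other lines by at least 1 on the log2(RPKM + 1) scale, as were 3.47% of the tested genes. The median difference over the 8 genes was 2.74 against BC44 and 2.33 against C57MG on that scale, beside medians of -0.02 and 0.03 over all tested genes. Both HC11 libraries lay above both BC44 libraries for 7 of 8 genes (34.4% of all tested genes) and above both C57MG libraries for 7 of 8 (45.1%). These comparisons share the HC11 libraries. Between BC44 and C57MG, the lines without EGF, 3 of 8 genes differed, 1 higher and 2 lower in BC44. Of all tested genes 71.7% differed there, 37.5% higher and 34.1% lower in BC44.

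**Figure D1:**
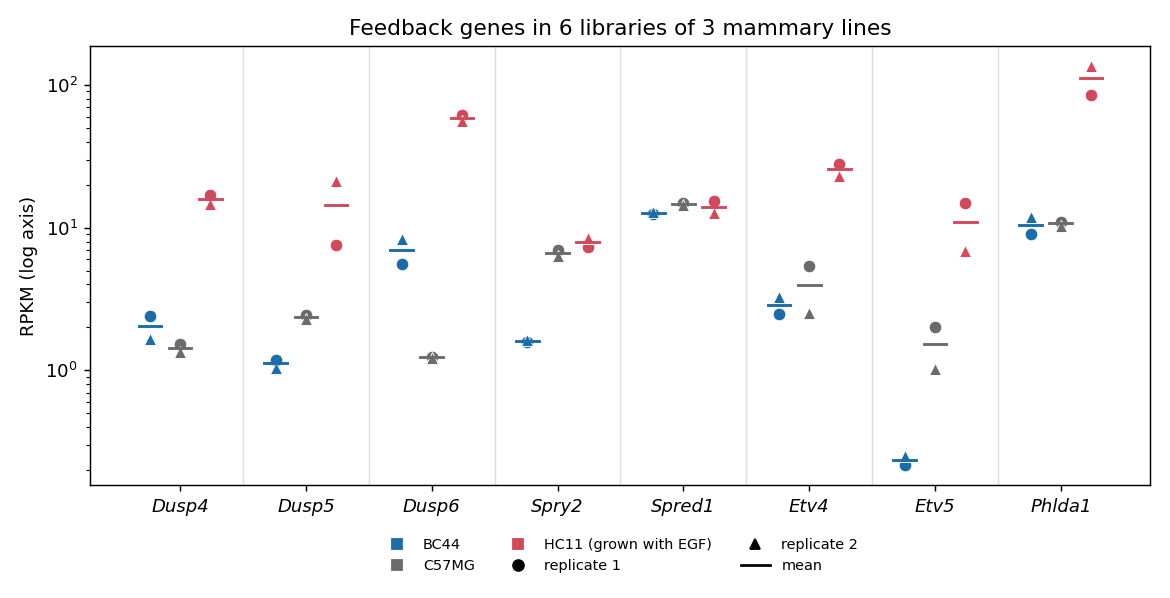
RPKM of the 8 listed feedback genes (log axis) in each library of BC44, C57MG and HC11; circles are replicate 1, triangles replicate 2 and lines the mean of 2. For Dusp4, Dusp5, Dusp6, Etv4, Etv5 and Phlda1 both HC11 libraries lie above the libraries of the other lines, while Spry2 is high in C57MG as well and the Spred1 libraries of HC11 overlap those of both other lines.

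Dusp6 (ENSMUSG00000019960, chromosome 10) encodes the cytoplasmic phosphatase that is specific for ERK. It was at 61.1 and 55.7 RPKM in HC11 replicates 1 and 2, at 5.60 and 8.32 in BC44, and at 1.25 and 1.23 in C57MG. The 3 lines did not overlap, and their order was HC11, BC44, C57MG. The HC11 mean of 58.4 ± 3.81 RPKM (SD, n = 2) was 8.39 times that of BC44 (6.96 ± 1.92) and 47.2 times that of C57MG (1.24 ± 0.0120). On the log2(RPKM + 1) scale, HC11 was higher by 2.92 than BC44 (SE 0.16, limma adjusted p-value 1.1e-05) and by 4.73 than C57MG (SE 0.16, 3.8e-07). Among all tested genes 0.771% had a rise from C57MG to HC11 at least as large. Dusp6 was also the one gene of the set that was higher in BC44 than in C57MG by this test, by 1.81 (SE 0.16, 3.39e-05).

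Dusp4 and Dusp5 encode nuclear phosphatases, Dusp5 one that is specific for ERK. Dusp4 (ENSMUSG00000031530, chromosome 8) was at 17.0 and 14.7 RPKM in HC11, 2.42 and 1.67 in BC44, and 1.53 and 1.35 in C57MG. Its HC11 libraries were above all others and differed by 1.15 times, with a mean 7.75 times that of BC44 and 11.0 times that of C57MG. The log2 differences were 2.48 (SE 0.15, limma adjusted p-value 1.45e-05) and 2.79 (SE 0.15, 2.43e-06). BC44 and C57MG did not differ by this test (0.31, SE 0.15, 0.0909).

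Dusp5 (ENSMUSG00000034765, chromosome 19) was at 7.60 RPKM in HC11 replicate 1 and 21.1 in replicate 2, at 1.19 and 1.04 in BC44, and at 2.46 and 2.31 in C57MG. Both HC11 libraries were above all others, but the second held 2.78 times the first. HC11 was higher by 2.70 than BC44 (SE 0.37, limma adjusted p-value 0.000883) and by 2.03 than C57MG (SE 0.37, 0.00183) on the log2 scale, the widest errors in the set. The ratio to the BC44 mean was 6.81 from HC11 replicate 1 and 18.9 from replicate 2, and to the C57MG mean 3.19 and 8.85. In C57MG Dusp5 was 2.14 times its BC44 level, with no overlap. That difference missed the threshold in the fit of all 6 libraries (-0.68 for BC44 against C57MG, SE 0.37, 0.137) and passed when the 4 libraries of these lines were fitted alone (-0.68, 0.000791). An antisense gene shares 547 of the 2473 exonic bases of Dusp5 in GENCODE M21, and one shares 727 of the 2205 of Phlda1. Whether the counting used the strand is not given in the sources used here, so both genes' levels are uncertain to that extent.

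The stretches before the start sites of Dusp5, Dusp6 and Etv5 are shown because these genes were raised together in HC11 yet differed in how the HC11 replicates and the 2 other lines stood. Promoter windows of RefSeq (build GRCm38.p6) were found for 5 of the 8 listed genes, in 6 windows of 250 bases before the start. They were searched on both strands for the ETS motif CCGGAA, the AP-1 motif TGANTCA and the cyclic AMP response element TGACGTCA. The CArG box bound by serum response factor was searched as well. No match overlapped another in these windows. The shorter ETS core GGAA was not searched. Of 32851 such windows in the table, 12.0% hold CCGGAA, 6.75% the AP-1 motif, 1.55% the TGACGTCA element and 1.47% a CArG box. Dusp5 is shown from chr19:53528895-53529108 on the plus strand, without the last 36 bases, which GENCODE places in its first exon. Dusp6 is shown from chr10:99262981-99263230 on the plus strand. Etv5 is shown for the second of its 2 listed starts, from chr16:22438369-22438618 on the minus strand. Capitals mark motif matches.
Dusp5: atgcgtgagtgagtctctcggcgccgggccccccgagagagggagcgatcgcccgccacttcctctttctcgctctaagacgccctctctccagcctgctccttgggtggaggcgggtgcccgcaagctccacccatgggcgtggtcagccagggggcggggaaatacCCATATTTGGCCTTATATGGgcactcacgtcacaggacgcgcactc
Dusp6: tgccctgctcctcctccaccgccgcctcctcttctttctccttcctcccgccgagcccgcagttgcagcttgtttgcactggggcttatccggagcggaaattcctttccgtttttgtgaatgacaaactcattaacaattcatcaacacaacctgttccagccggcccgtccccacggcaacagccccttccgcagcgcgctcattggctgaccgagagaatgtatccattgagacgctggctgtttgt
Etv5: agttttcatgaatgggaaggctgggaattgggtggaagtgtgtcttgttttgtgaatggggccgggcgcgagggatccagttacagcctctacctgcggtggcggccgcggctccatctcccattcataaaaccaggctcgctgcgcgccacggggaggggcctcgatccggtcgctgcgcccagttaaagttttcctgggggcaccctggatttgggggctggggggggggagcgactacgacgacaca
The Dusp5 window holds 2 adjoining CArG boxes, CCATATTTGG and CCTTATATGG, at 82 to 73 and 72 to 63 bases before the RefSeq start. The windows of Dusp6, Spry2, Spred1 and both Etv5 starts hold none of the 4 motifs, which says only that these letters are not in those 250 bases.

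Etv4 and Etv5, the PEA3-family transcription factors, were both highest in HC11. Etv4 (ENSMUSG00000017724, chromosome 11) was at 28.1 and 23.2 RPKM in HC11, 2.47 and 3.29 in BC44, and 5.40 and 2.51 in C57MG. BC44 and C57MG overlapped, and HC11 was above both, at 8.92 times the BC44 mean and 6.49 times the C57MG mean. The log2 differences were 2.78 (SE 0.27, limma adjusted p-value 0.000153) and 2.49 (SE 0.27, 0.000108). C57MG replicate 1 held 2.15 times the Etv4 of replicate 2. BC44 and C57MG did not differ by this test (-0.30, SE 0.27, 0.346), and the direction turned to 0.14 without C57MG replicate 1, while without C57MG replicate 2 the difference passed (-0.73, 0.0168).

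Etv5 (ENSMUSG00000013089, chromosome 16) had the largest ratio of the set between HC11 and BC44. It was at 14.9 and 6.91 RPKM in HC11, 0.217 and 0.251 in BC44, and 2.02 and 1.03 in C57MG. The 3 lines did not overlap and stood in the order HC11, C57MG, BC44. The HC11 mean of 10.9 ± 5.69 RPKM (SD, n = 2) was 46.7 times that of BC44 and 7.16 times that of C57MG. BC44 rested on an estimated 13 and 18 reads, and HC11 replicate 1 held 2.16 times the level of replicate 2. Taken singly, HC11 replicates 1 and 2 were 63.9 and 29.5 times the BC44 mean, and 9.80 and 4.53 times the C57MG mean. HC11 was higher by 3.19 than BC44 (SE 0.32, limma adjusted p-value 0.000192) and by 2.18 than C57MG (SE 0.32, 0.000566) on the log2(RPKM + 1) scale. With a pseudocount of 0.1 in place of 1 the first became 4.94 (0.000205). BC44 against C57MG gave -1.00 (SE 0.32, 0.0234), or -2.21 with a pseudocount of 0.1 (0.00303). That call was lost without BC44 replicate 1 (-0.98, 0.105), BC44 replicate 2 (-1.02, 0.095) or C57MG replicate 1 (-0.72, 0.14).

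Spry2 and Spred1, the inhibitors that act upstream of ERK, were not raised in HC11 over both other lines by the test. Spry2 (ENSMUSG00000022114, chromosome 14) was at 7.36 and 8.47 RPKM in HC11, 6.98 and 6.32 in C57MG, and 1.57 and 1.62 in BC44. It was low in BC44 and close in the other lines. HC11 was 4.95 times BC44 (log2 difference 1.78, SE 0.11, limma adjusted p-value 1.97e-05) and 1.19 times C57MG (0.22, SE 0.11, 0.112). C57MG held 4.16 times the BC44 level (-1.56 for BC44 against C57MG, SE 0.11, 1.02e-05). Spred1 (ENSMUSG00000027351, chromosome 2) was at 15.3 and 12.6 RPKM in HC11, 14.9 and 14.5 in C57MG, and 12.4 and 12.8 in BC44. The HC11 libraries overlapped those of both other lines, and no comparison passed, with log2 differences of 0.13 against BC44 (SE 0.11, 0.346), -0.08 against C57MG (SE 0.11, 0.549) and -0.21 for BC44 against C57MG (SE 0.11, 0.116).

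Phlda1 (ENSMUSG00000020205, chromosome 10), which encodes a pleckstrin homology-like domain protein induced by growth factors, had the highest level of the set per length of gene in HC11. It was at 85.6 and 136 RPKM in HC11, 9.05 and 11.8 in BC44, and 11.0 and 10.3 in C57MG. BC44 and C57MG overlapped, and the HC11 mean of 111 ± 35.3 RPKM (SD, n = 2) was 10.6 and 10.4 times theirs. The log2 differences were 3.26 (SE 0.21, limma adjusted p-value 2.27e-05) and 3.22 (SE 0.21, 7.42e-06), and BC44 against C57MG gave -0.04 (SE 0.21, 0.892).

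**Figure D2:**
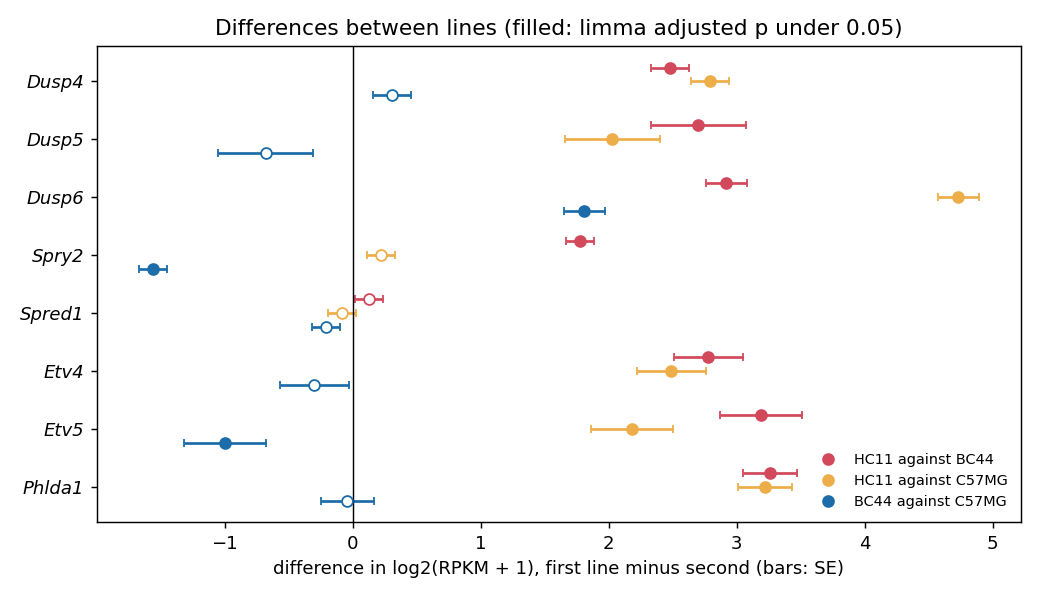
Difference in log2(RPKM + 1) between lines for the 8 listed genes, first line minus second, with the limma SE as bars; filled points have an adjusted p-value under 0.05. Dusp6 shows the largest difference, 4.73 for HC11 against C57MG, and Dusp5 and Etv5 have the widest bars.

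The 2 HC11 libraries differed in opposite directions within the set. Dusp5, Phlda1 and Spry2 were higher in replicate 2, by 1.36, 0.66 and 0.18 on the log2(RPKM + 1) scale. Etv5, Etv4, Spred1, Dusp4 and Dusp6 were higher in replicate 1, with differences of -1.01, -0.26, -0.26, -0.19 and -0.13 for replicate 2 minus replicate 1. The median absolute gap of all tested genes was 0.14, and 0.316% of them had a gap as large as that of Dusp5, 0.725% as large as Etv5 and 2.48% as large as Phlda1. In C57MG the ETS factors had the widest gaps of the set, both higher in replicate 1: -0.87 for Etv4 and -0.58 for Etv5, reached by 0.409% and 1.06% of tested genes. In BC44 the widest was Dusp6, higher in replicate 2 by 0.50, reached by 2.15%. The cause of these gaps was not tested.

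Other transcripts that respond to ERK moved between the HC11 libraries as Dusp5 and Phlda1 did. Of 12 such genes 11 were higher in replicate 2, with a median of 0.86, while 5091 of the 10759 tested genes were higher there, with a median of -0.01. The widest were Fosl1, an AP-1 subunit, at 22.3 and 56.6 RPKM, and Ereg, an EGF receptor ligand, at 52.3 and 126. Dusp1, a phosphatase of the same family and an immediate early gene, was at 2.48 and 6.39 RPKM. Errfi1, a feedback inhibitor of the EGF receptor, was at 73.0 and 133. The kinases and adaptors of the cascade itself showed no gap of 0.5 or more in 19 tested genes, and 5.40% of all tested genes had one. In BC44, grown without EGF, all of the 12 genes but Ccnd1 were higher in replicate 2. The share of all tested genes higher there was not computed, so this count has no background beside it. Ccnd1 was at 158 RPKM in both. Fosl1 was at 1.24 and 5.04 RPKM in BC44, Areg at 1.25 and 2.58, and Ier3 at 16.3 and 24.7. Phlda1 was also higher in BC44 replicate 2 (9.05 and 11.8), but Dusp5 was not (1.19 and 1.04). In C57MG, Fosl1 (102 and 64.6) and Areg (40.0 and 27.5) were higher in replicate 1. The C57MG genes followed above were at a median of 0.666% and 2.02% of their C57MG level in BC44 replicates 1 and 2. How far that signal adds to Fosl1 and Areg in BC44 was not tested. The cause was not tested.

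**Figure D3:**
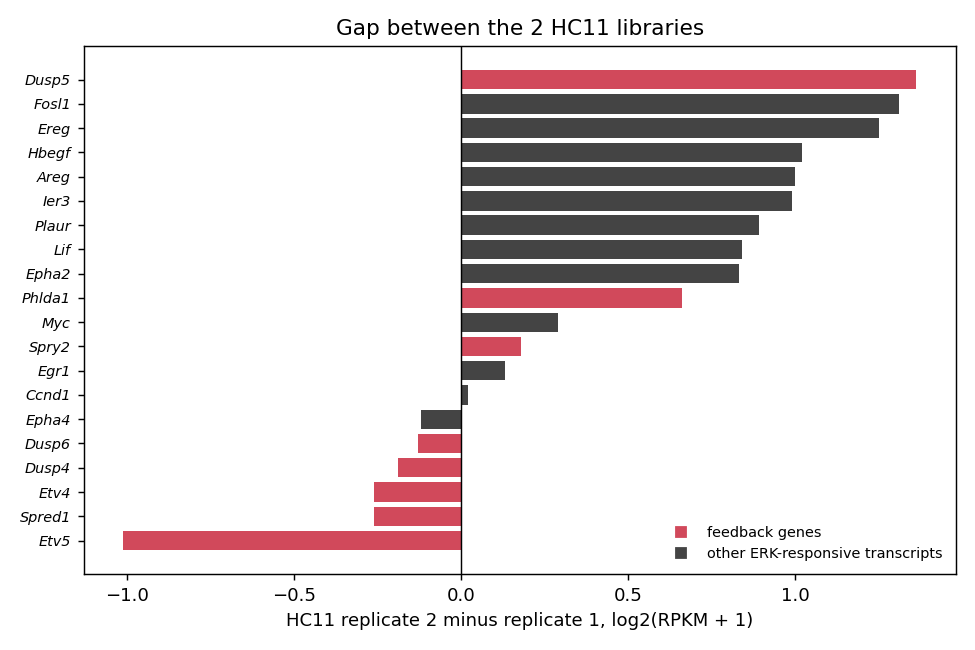
Difference between HC11 replicate 2 and replicate 1 in log2(RPKM + 1) for the 8 feedback genes and the 12 other ERK-responsive transcripts. Dusp5 lies at 1.36 beside Fosl1 and Ereg, while Etv5 lies at -1.01.

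Beyond the set, 71 genes of the pathway in 8 lists were examined, of which 68 were listed and 66 tested. The other ERK-responsive transcripts came closest to the set: 10 of 12 were higher in HC11 than in BC44 and 1 was lower, and against C57MG 8 were higher and 0 lower (0 also at an unadjusted p under 0.05 in limma), beside the 23.0% and 37.4% of all tested genes that were higher. Their median log2 difference was 2.64 against BC44 and 1.29 against C57MG. Areg, an EGF receptor ligand, was at 59.8 and 121 RPKM in HC11, 1.25 and 2.58 in BC44, and 40.0 and 27.5 in C57MG (log2 difference 4.92 against BC44, SE 0.35, limma adjusted p-value 3.62e-05). Ier3, an early response gene, was at 262 and 522 RPKM in HC11, 16.3 and 24.7 in BC44, and 26.3 and 21.9 in C57MG (4.14, SE 0.31, 4.81e-05). Egr1, an immediate early transcription factor, was at 10.6 and 11.8 RPKM in HC11, 1.25 and 1.96 in BC44, and 0.555 and 0.622 in C57MG (2.24, SE 0.14, 2.29e-05). The exception was Epha4, an ephrin receptor, which was lower in HC11 than in BC44 (-2.52, SE 0.12, 6.14e-06). Its rise against C57MG rests on low values, 0.383 and 0.276 RPKM in HC11 and 0.0520 and 0 in C57MG. Fosl1 was not called against C57MG, where it was at 102 and 64.6 RPKM (-1.17 for HC11 against C57MG, SE 0.54, limma adjusted p-value 0.0889).

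In the lists that follow, the shares of all tested genes are 23.0% higher and 24.7% lower in HC11 against BC44, and 37.4% higher and 33.2% lower against C57MG. Among 7 tested genes of the EGF receptor family and its inhibitors, 2 were higher in HC11 than in BC44 and 2 lower, near those shares. The higher genes were both inhibitors, but not all inhibitors of the list were raised. Cbl was lower, and Cblb did not pass (log2 difference 0.26, SE 0.13, limma adjusted p-value 0.14). Lrig1, a membrane protein that restrains EGF receptors, was at 44.0 and 55.5 RPKM in HC11, 2.88 and 2.03 in BC44, and 16.8 and 16.9 in C57MG (log2 difference 3.88 against BC44, SE 0.15, limma adjusted p-value 2.51e-06). Errfi1 was higher by 2.37 (SE 0.25, 0.000236). Erbb3 (-0.61, 0.0339) and Cbl (-0.38, 0.0118) were lower. The call of Erbb3 was lost with a pseudocount of 0.1 (-0.71, 0.0682), in the 4 libraries alone (-0.61, 0.0606), and without BC44 replicate 1 (-0.49, 0.18), BC44 replicate 2 (-0.73, 0.0691), C57MG replicate 1 (-0.61, 0.0604), C57MG replicate 2 (-0.61, 0.0605) or HC11 replicate 2 (-0.32, 0.119), and that of Cbl without BC44 replicate 2 (-0.35, 0.0663). Against C57MG 6 of the 7 were higher in HC11, beside 37.4% of all tested genes, and 0 lower beside 33.2%, with 0 also at an unadjusted limma p under 0.05.

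Of 7 tested MAPK phosphatases outside the set, 2 were higher in HC11 than in BC44 and 3 lower, beside 23.0% and 24.7% of all tested genes. Dusp10, which acts mainly on the stress kinases p38 and JNK, was at 6.20 and 12.3 RPKM in HC11 against 2.11 and 2.43 in BC44 (log2 difference 1.58, SE 0.25, limma adjusted p-value 0.00185). Dusp16 was at 13.4 and 15.0 against 5.21 and 5.18 (1.29, SE 0.10, 5.71e-05). Dusp2 was lower (-1.20, SE 0.11, 0.000123), at 0.0810 and 0.0700 RPKM in HC11, near the floor, against 1.67 and 1.29 in BC44. Dusp8 was also lower, at 5.77 and 7.64 RPKM against 12.6 and 18.6 (-1.09, SE 0.19, limma adjusted p-value 0.00272). Dusp7, a cytoplasmic ERK phosphatase closely related to Dusp6, was at 38.9 in both HC11 libraries and at 42.0 and 47.8 RPKM in BC44, and did not pass (-0.20, SE 0.10, 0.144). It was lower in C57MG, at 12.4 and 10.8 RPKM (1.66 for HC11 against C57MG, SE 0.10, 4.88e-06). Against C57MG 3 of the 7 were higher in HC11 and 1 was lower, beside 37.4% and 33.2% of all tested genes.

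None of the 3 tested Sprouty and Spred genes outside the set (Spry1, Spred2 and Spred3) differed between HC11 and BC44 by limma after adjustment, and 1 did, Spred3, at an unadjusted p under 0.05. Against C57MG Spred3 was lower in HC11 (-0.55, SE 0.14, limma adjusted p-value 0.0108), a call lost without C57MG replicate 1 (-0.48, 0.0585). Other ETS factors gave 3 higher and 2 lower of 7 against BC44 (23.0% and 24.7% of all tested genes), led by Elk3 (1.04, SE 0.11, 0.000199). Against C57MG 4 were higher and 1 lower (37.4% and 33.2%), led by Ets2 (2.07, SE 0.16, 1.92e-05).

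The cascade genes were called at shares near those of all tested genes against BC44. Of 19, from the adaptors to ERK and its substrate kinases, 4 were higher and 6 lower in HC11 than in BC44 (23.0% and 24.7% of all tested genes) with a median of -0.04. Against C57MG 8 were higher and 2 lower (37.4% and 33.2%) with a median of 0.19. Grb2, the adaptor that links receptors to RAS, was the largest rise against BC44 (1.58, SE 0.07, limma adjusted p-value 3.6e-06). Of 7 other brakes of the pathway 3 were higher and 1 lower than in BC44, led by Dab2ip, a RAS GTPase-activating protein (1.10, SE 0.10, 0.000106). Against C57MG 3 of these 7 were higher and 1 was lower. Of the 4 tested FGF and MET receptors, 1 was higher and 2 were lower in HC11, both against BC44 and against C57MG. Met was just past the threshold for HC11 against BC44 (0.50, SE 0.17, 0.0492). Its call was lost without either BC44 library (0.34, 0.26 and 0.65, 0.0635 without replicates 1 and 2), either C57MG library (0.50, 0.0569 and 0.0566) or HC11 replicate 2 (0.29, 0.261). It was also lost with a pseudocount of 0.1 (0.51, 0.067), with no filter on low values (0.50, 0.0537), in the 4 libraries alone (0.50, 0.0551) and in limma without trend (0.50, 0.0571). Fgfr2, which was at 34.6 and 37.2 RPKM in BC44 and 1.79 and 1.27 in HC11, was lower (-3.87, SE 0.13, 1.44e-06).

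**Figure D4:**
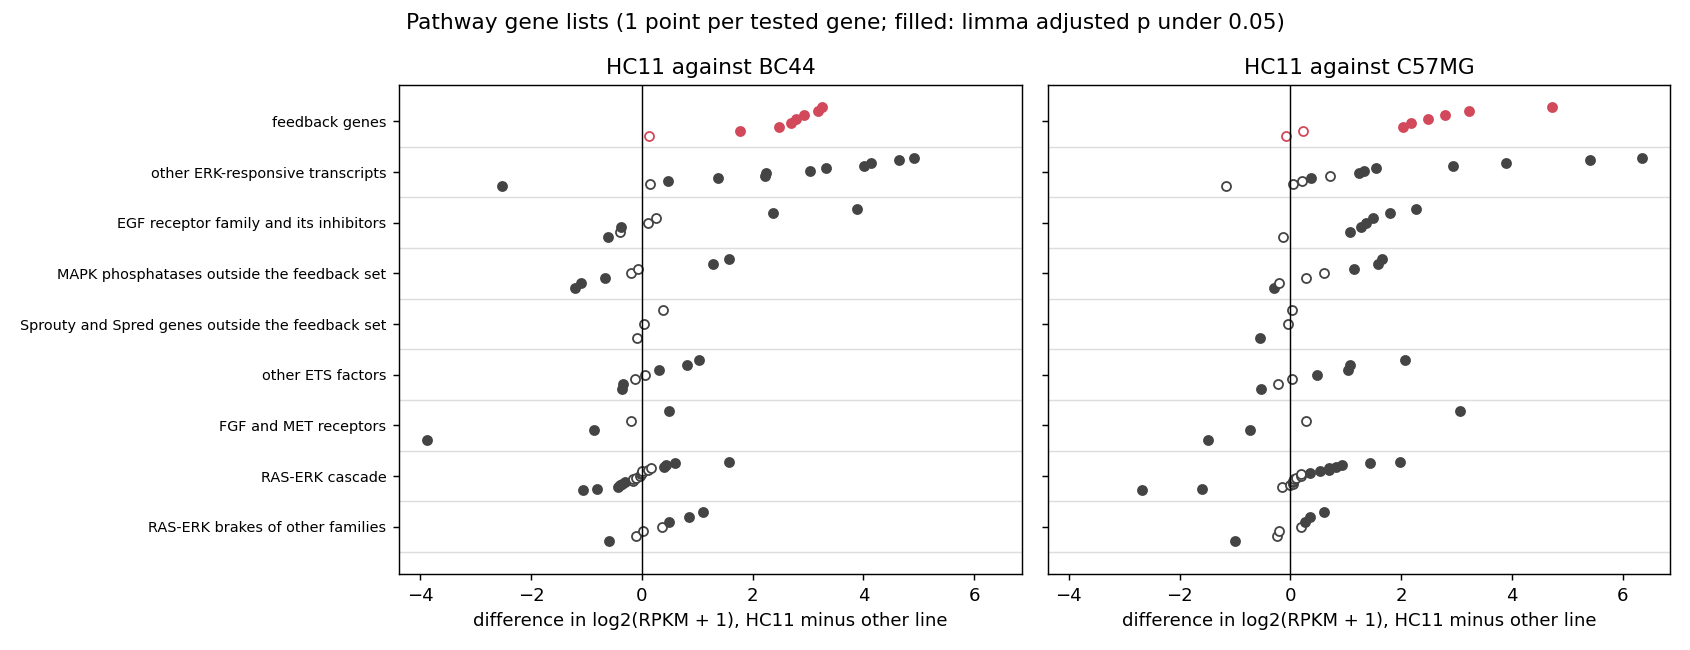
Difference in log2(RPKM + 1) of HC11 against BC44 (left) and against C57MG (right), 1 point per tested gene of each list; filled points have a limma adjusted p-value under 0.05, and the panels share the HC11 libraries. The feedback genes and the other ERK-responsive transcripts lie mostly to the right, with medians of 2.74 and 2.64 against BC44, and the cascade genes around 0.

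By Pearson's r of log2(RPKM + 1) over the 6 libraries, the tested genes outside the set most like Dusp6 were Cyp7b1 (r = 0.9997), Golga7 (0.9981) and Elavl1 (0.9972). Of these, Cyp7b1, a steroid hydroxylase, had differences of the same order, at 11.6 and 10.5 RPKM in HC11, 1.23 and 1.77 in BC44 and listed at 0 in C57MG. Golga7 ranged only from 29.3 to 56.1 RPKM. Genes most like Etv4 included Bhlhe40 (0.9966) and Tmsb10 (0.9945). Bhlhe40, a transcription factor, was at 43.2 and 42.1 RPKM in HC11, 9.07 and 10.0 in BC44, and 13.3 and 9.57 in C57MG. These values are a description over 3 lines, and 51 genes reached an r of at least 0.99 with Dusp6 and 7 with Etv4.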

How the data were processed

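The authors deposited 1 table of RPKM values with 1 column per library, 3 decimals and 11417 genes. Per the submitters' processing notes, STAR and the build mm9 were used. The read counter, the annotation, the gene lengths and the choice of genes listed are not given in the sources used here. All 11417 identifiers and symbols matched GENCODE M21 (GRCm38), from which chromosomes and exonic lengths were taken. Depth was estimated from the step of low values, the worth of 1 read: 76.3% to 81.2% of 235 to 384 low values per library lay within 0.15 of a whole number of reads, against 30.0% by chance. The choice of low values was revised after a first choice gave no clear step for HC11 replicate 1.

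Values were tested as log2(RPKM + 1), which understates the change of low genes, with limma 3.58.1 in R 4.3.3 (trend; all 6 libraries in 1 fit sharing 1 estimate of the spread) on the 10759 genes with at least 1 RPKM in at least 2 libraries. P-values are two-sided and adjusted by Benjamini-Hochberg within each comparison, with a threshold of 0.05. An exact permutation test of 2 against 2 cannot go below 0.33 and was not used. On simulated data 200 of 200 genes changed by 1.5 (log2) were recovered among 10759 genes in HC11 against BC44, with 7 wrong calls of 207. The changed genes were drawn above a minimum mean level, and all others were left unchanged. Noise followed the typical spread at each level. The recovery thus does not speak to low genes or to genes whose replicates differ widely.

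Members and gene lists were chosen with earlier results of these data known. All listed members were named. In each pathway list up to 3 genes with the largest change among those called against BC44, and up to 2 more against C57MG, could be named. Fosl1, Ccnd1, Dusp1, Epha4, Spry1 and Spred2 fall outside this rule and were named after their values were seen. The 3 genes most like Dusp6 and Etv4 were named, except 1 that is not reported here; the same rule for Spry4 gave none. Alternatives were another pseudocount, other filters, quantile and median-ratio scaling, other variance settings, the 4 libraries alone, the replicate number as a block and omitting 1 library at a time. Python 3.11.15, numpy 2.4.6, pandas 2.3.3 and matplotlib 3.10.9 did the rest.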

Additional observations from a re-analysis of the deposited data

How the results depend on the processing

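Of 357 recomputed differences of the 8 genes over 15 alternatives, 344 kept direction and side of the threshold, 3 lost the call, 6 gained one and 4 turned direction. Every call of HC11 against BC44 or C57MG was kept in all 15 alternatives that tested the gene; Etv5 was not tested at a mean of at least 5 RPKM. Of 295 recomputed differences of named pathway genes outside the set, 277 kept their side of the threshold, 18 lost the call and 0 turned direction; the losses concern Erbb3, Cbl, Spred3 and Met. Leaving out 1 library gave between 3762 and 4776 genes called in HC11 against BC44 (5129 in the main analysis), 6274 to 7404 in HC11 against C57MG (7590) and 6554 to 7944 in BC44 against C57MG (7713). The reversals all concern small differences that did not pass: leaving out 1 library at a time moved Spred1 in HC11 against C57MG between -0.20 and 0.05, and in BC44 against C57MG it moved Etv4 between -0.73 and 0.14 and Phlda1 between -0.21 and 0.14 (0.00 without C57MG replicate 1).

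The replicate numbers of the labels were not taken to pair the libraries in the main fit. Deviations of same-numbered libraries correlated at 0.354 between BC44 and HC11. They correlated at 0.038 between C57MG and HC11 and at -0.039 between BC44 and C57MG. Whether BC44 and HC11 share an effect of the replicate number was not tested. A fit that blocked on the replicate number called 5350, 7721 and 7875 genes, and 7, 6 and 4 of the 8 genes, in HC11 against BC44, HC11 against C57MG and BC44 against C57MG. The block added Dusp4 in the last (0.31, limma adjusted p-value 0.0373), as did leaving out BC44 replicate 2 (0.49, 0.03); it changed no other call of the set. Leaving out either HC11 library let Dusp5 pass in BC44 against C57MG (-0.68, adjusted p-values 0.00111 and 0.000993), as these lines then no longer share the spread of Dusp5 between HC11 replicates. Depth limits the level of Etv5 in BC44 most, at an estimated 13 and 18 reads.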
